A study of Homo sapiens with 30 samples.

Results

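The loci of TAL1, LMO2 and GATA2 were examined for open chromatin, measured by ATAC-seq (cutting of accessible DNA by the Tn5 transposase), in 30 libraries of the 2 human endothelial lines Eahy926 and TeloHAEC. Members were all peak summits inside 3 hg19 windows, chromosome 1 from 47.63 to 47.75 Mb for TAL1, chromosome 11 from 33.84 to 34.00 Mb for LMO2 and chromosome 3 from 128.15 to 128.27 Mb for GATA2. They held 1006 of 3051490 autosomal summits (318 at TAL1, 450 at LMO2 and 238 at GATA2) and 36 of the 107672 regions of 501 bp that were compared across the genome. These 36 regions, 12 at TAL1, 17 at LMO2 and 7 at GATA2, are called elements here.

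Eahy926 is a hybrid of human umbilical vein endothelium with a lung carcinoma line, and TeloHAEC is human aortic endothelium immortalised with telomerase. Both were labelled parental, and each is a single line kept in its own medium, so a difference between them is a difference between these lines and media. Each line had 5 groups of 3 biological replicates: untreated cells prepared on day 0, untreated cells prepared on day 1, and 3 treated groups prepared on day 1. Treatments were 10 ng/ml of the inflammatory cytokine IL1b for 24 h, 10 ng/ml of the cytokine TNFa for 24 h, and a change of the growth factor VEGF. Eahy926, grown in a medium without VEGF, received it, and TeloHAEC, grown in a medium with VEGF, went without it. Per the file headers, libraries held 4016678 to 14040011 tags, of which 3577273 to 11404955 were kept. The libraries with the fewest kept tags were Eahy926 with VEGF replicate 1, TeloHAEC with TNFa replicate 3 and TeloHAEC without VEGF replicate 1. Of 9 endothelial marker promoters, 3 to 6 (median 4) had a strong peak per TeloHAEC library and 3 to 5 (median 4) per Eahy926 library. KDR, a VEGF receptor, had one in every library of both lines, and PECAM1, an endothelial junction protein, in none. TIE1 had one in every Eahy926 library. ESAM had one in no TeloHAEC library, and VWF and EMCN in no Eahy926 library. Strong peaks were found at 0 to 1 of 6 epithelial promoters in each line (median 0 in both). At 7 blood promoters the count was 0 to 1 in TeloHAEC (median 0) and 0 to 2 in Eahy926 (median 2). At 4 smooth muscle promoters it was 1 to 2 in TeloHAEC and 0 to 1 in Eahy926 (median 1 in both).

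TAL1 is a basic helix-loop-helix factor that binds DNA at E-boxes (CANNTG) together with E proteins. GATA2 is a zinc finger factor that binds GATA sites. LMO2 binds no DNA itself and bridges TAL1 and GATA factors in a complex with LDB1. The complex acts in blood stem cells and in the endothelium from which they arise, and GATA2 and LMO2 stay active in many mature endothelial cells. All 3 genes are controlled by enhancers spread over their loci. Transcript levels were not measured, so the values below describe chromatin only. ATAC-seq of a culture cannot tell apart more cells with an open element and a more open element in each cell.

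All 3 genes run on the minus strand. Elements are named by gene and distance in kb of their centre from the gene's outermost start, with + for downstream (inside the gene and past its end) and - for upstream. Gene starts on hg19 were written from general knowledge, so the distances are approximate. The level of an element in a library was given by the place of its peak when all peaks of that library were ordered by p, place 1 being the strongest. Lists were shortened to 49774 peaks, and the 45000 strongest are called strong peaks. The rank score divides 49774 plus 1 by the place and takes log2. It is 0 where no listed peak was present. A rank score difference of 1 thus stands for a place that is 1 doubling nearer the top of the list. Scores are relative to the other peaks of the same library. An element was tested where at least 3 libraries of a fit had a strong peak. One with strong peaks on 1 side of a comparison only was therefore tested through the side where it is high, and its difference is given as a description, not as support.

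The promoters that the results turn on are given first, with matches on either strand of GATAA, of the E-box CANNTG and of the AP-1 motif TGANTCA in capitals. TAL1 and PDZK1IP1, a membrane protein gene downstream of TAL1, are shown because an element at their start changed between groups. GATA2 is shown for its inner start, next to an element that differed between the lines. They are RefSeq sequences of GRCh38.p14, each 300 bases around a start on the minus strand, most of them before it, matched by symbol, and were not compared with hg19. The positions are chr1:47232286-47232585 for TAL1, chr1:47189987-47190286 for PDZK1IP1 and chr3:128488481-128488780 for GATA2. LMO2 is named only.
TAL1: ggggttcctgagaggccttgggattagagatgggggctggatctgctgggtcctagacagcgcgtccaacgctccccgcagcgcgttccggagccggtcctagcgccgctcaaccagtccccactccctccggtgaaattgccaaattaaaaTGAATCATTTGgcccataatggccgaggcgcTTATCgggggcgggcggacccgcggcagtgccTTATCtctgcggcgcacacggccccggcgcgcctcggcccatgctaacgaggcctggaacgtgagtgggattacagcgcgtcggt
PDZK1IP1: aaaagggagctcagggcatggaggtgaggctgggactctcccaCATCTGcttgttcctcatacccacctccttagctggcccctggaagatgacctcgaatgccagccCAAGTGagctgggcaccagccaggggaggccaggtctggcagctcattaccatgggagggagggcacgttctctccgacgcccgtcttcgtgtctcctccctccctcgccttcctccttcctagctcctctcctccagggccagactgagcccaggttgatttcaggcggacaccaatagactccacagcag
GATA2: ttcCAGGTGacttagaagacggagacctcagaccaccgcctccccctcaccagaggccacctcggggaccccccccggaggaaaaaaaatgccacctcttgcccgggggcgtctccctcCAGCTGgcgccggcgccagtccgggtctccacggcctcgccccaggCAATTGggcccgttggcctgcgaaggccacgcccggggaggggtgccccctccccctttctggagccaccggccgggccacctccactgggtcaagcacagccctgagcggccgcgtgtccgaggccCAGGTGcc
TAL1 had 2 matches of GATAA, 1 of CANNTG and 1 of TGANTCA, the last 2 of which overlap. PDZK1IP1 had 2 matches of CANNTG and none of the others. GATA2 had 4 matches of CANNTG and none of the others. Of 35116 RefSeq promoters of 300 bp, 22.7% held GATAA, 68.7% CANNTG and 7.71% TGANTCA. The ETS core GGAA, left in lower case, was present 3 times at TAL1, 4 times at PDZK1IP1 and 2 times at GATA2, and in 95.5% of promoters. A match is a description of letters and not a binding site.

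**Figure D1:**
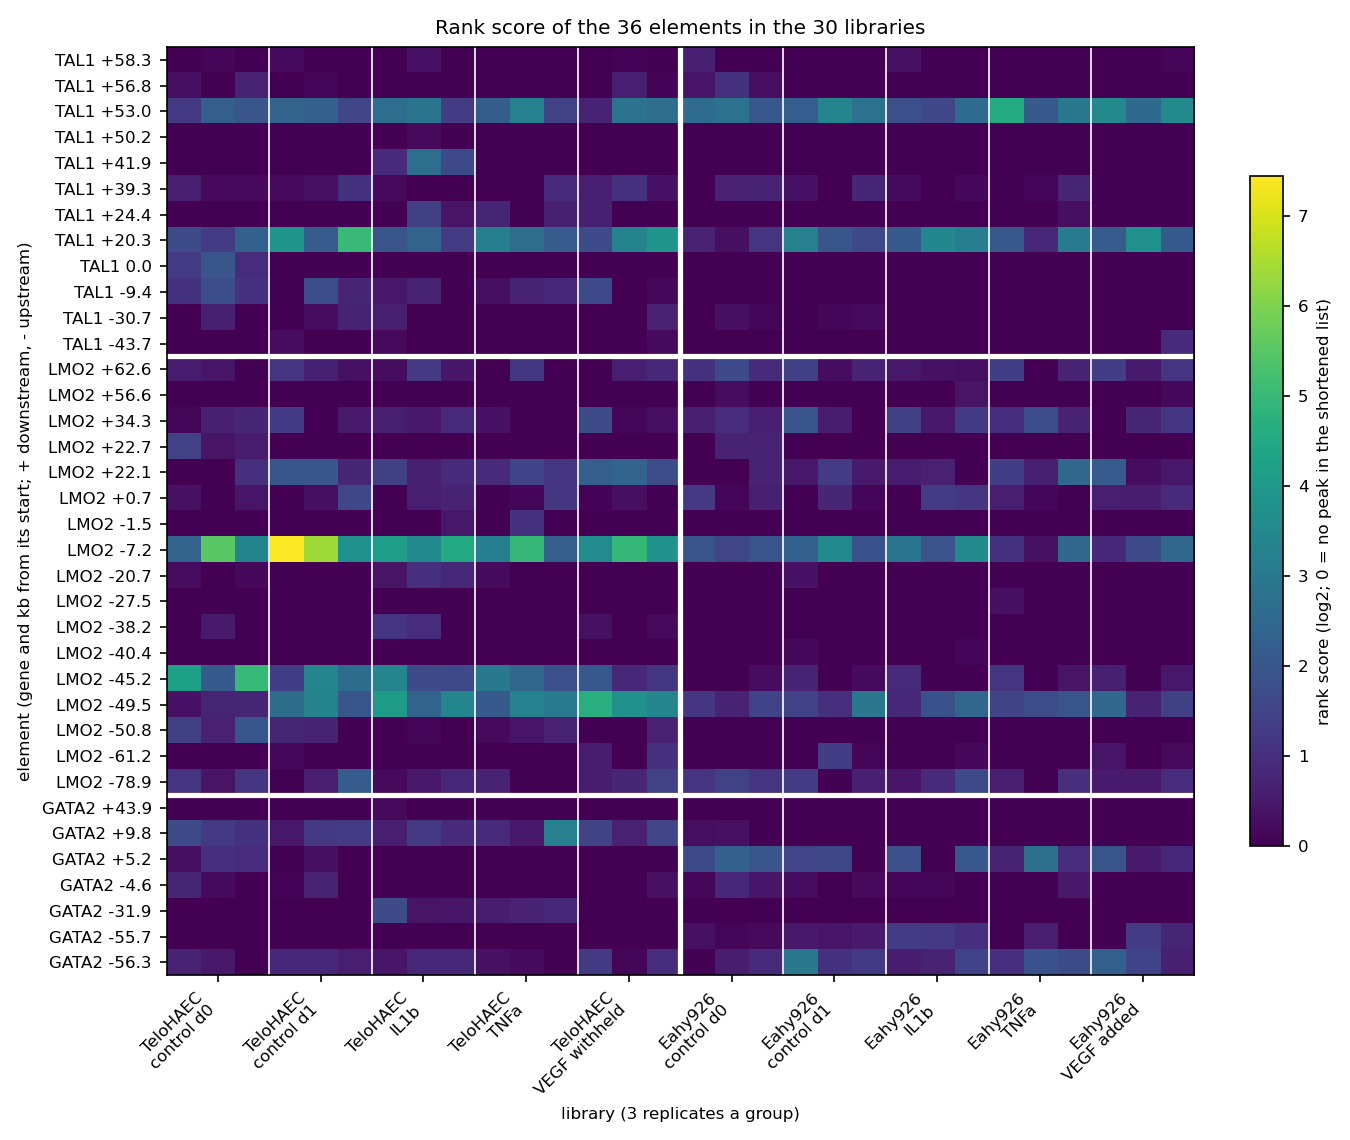
Rank score (log2, colour) of the 36 elements (rows, gene and kb from its start) in the 30 libraries (columns, 3 replicates a group, TeloHAEC left and Eahy926 right; d0 and d1 are the preparation days). The rows TAL1 +53.0, TAL1 +20.3, LMO2 -7.2 and LMO2 -49.5 are above 0 in all 30 libraries, and TAL1 +41.9 is above 0 in the 3 TeloHAEC IL1b libraries only.

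A TeloHAEC library had 23 to 46 peaks of any strength in the windows (median 39) and an Eahy926 library 14 to 32 (median 23). TeloHAEC lists were also longer over all autosomes, at 67804 to 115794 peaks (median 106767) against 49774 to 85525 (median 75478), so the windows held a median of 0.0365% of a TeloHAEC list and 0.0314% of an Eahy926 list. Those shares ranged from 0.0330% to 0.0506% and from 0.0276% to 0.0415% and overlap. Counted at elements with a strong peak, the medians were 17 (12 to 20) and 14 (9 to 17). In the TAL1 window (0.12 Mb) the median was 5 elements in TeloHAEC and 3 in Eahy926, at LMO2 (0.16 Mb) 8 and 7, and at GATA2 (0.12 Mb) 3 in both. In all, 4 elements had a strong peak in 30 of 30 libraries: TAL1 +53.0, TAL1 +20.3, LMO2 -7.2 and LMO2 -49.5. Of peaks in the windows, 122 in TeloHAEC and 41 in Eahy926 lay at no element.

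The elements open in every library did not lie at the gene starts. At the outer GATA2 start, 0 of 15 TeloHAEC and 0 of 15 Eahy926 libraries had a peak of any strength within 1 kb. The element at the inner GATA2 start, GATA2 +5.2, had a strong peak in 17 of 30 libraries. At the outer LMO2 start, LMO2 +0.7 had a strong peak in 17 of 30 libraries, with a best place of 16725. Its mean rank score was 0.44 ± 0.58 in TeloHAEC controls and 0.49 ± 0.49 in Eahy926 controls (SD, n = 6 each), and the difference was not called (-0.05 ± 0.28 SE, adjusted p = 0.907, limma). The inner LMO2 start had the adjacent elements LMO2 +22.7 and LMO2 +22.1, strong in 5 and 25 libraries. All 3 TeloHAEC day 0 controls had a strong peak at LMO2 +22.7 and only replicate 3 had one at LMO2 +22.1, whereas the 3 day 1 controls had strong peaks at LMO2 +22.1 and no listed peak at LMO2 +22.7. Neither difference between the days was called in TeloHAEC: it was -0.82 at LMO2 +22.7 (SE 0.29, adjusted p = 0.0745) and 1.25 at LMO2 +22.1 (SE 0.46, adjusted p = 0.0868, limma). Eahy926 had a like pattern. Its day 0 controls 2 and 3 had listed peaks at LMO2 +22.7 (30163 and 29779), and only replicate 3 had one at LMO2 +22.1. Its 3 day 1 controls had listed peaks at LMO2 +22.1 (34772, 19968 and 34516) and none at LMO2 +22.7. In 1 library (Eahy926 day 0 control replicate 3) a single peak covered both.

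The start of TAL1, element TAL1 0.0 (chromosome 1, 47697787 to 47698287), was a strong peak in 3 of 30 libraries. These were the TeloHAEC day 0 controls, at places 20195, 12870 and 25606. In the TeloHAEC day 1 controls, replicate 1 had a weaker peak at place 62814 of its full list, replicate 3 at place 103894 and replicate 2 none. Single weaker peaks were found in 1 library each of the IL1b, TNFa and VEGF-withheld groups (places 75116, 103468 and 75654), and no Eahy926 library had a peak at the element. All treated libraries were prepared on day 1, so within TeloHAEC the libraries with and without a strong peak at the TAL1 start are those of the 2 preparation days. In Eahy926 the day 0 controls had no peak at the element either. The element was tested between days through the 3 day 0 peaks alone, with a score of 0 in all 3 day 1 controls, so its difference describes those 3 peaks. The rank score was 1.40 lower on day 1 than on day 0 in TeloHAEC controls (SE 0.34, adjusted p = 0.0251, limma). With LMO2 -49.5, which had strong peaks on both days, it was 1 of 2 elements called among 20 tested, 1 in each direction, where 4.98% of regions genome-wide were called higher and 6.59% lower on day 1. The call was lost without TeloHAEC day 1 control replicate 1, 2 or 3 and in 4 of 8 other settings, among them no filter (adjusted p = 0.108, limma), and leaving out a day 0 control left too few strong peaks for a test.

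LMO2 -49.5 (chromosome 11, 33963129 to 33963629), which is open in every library, stood at places 38950, 29036 and 28534 in the TeloHAEC day 0 controls and at 7968, 4922 and 12428 on day 1. All day 1 controls were above all day 0 controls, a rank score difference of 2.02 (SE 0.51, adjusted p = 0.0289, limma). In Eahy926 the corresponding places were 22170, 30411 and 17734 on day 0 and 17862, 24830 and 6469 on day 1, which overlap. The TeloHAEC call was lost without day 0 control replicate 1, 2 or 3 or day 1 control replicate 2. In Eahy926 the only element of 16 called between days was TAL1 +20.3, at places 30160, 39912 and 22627 on day 0 and 5206, 12455 and 16063 on day 1 (1.57 ± 0.48 SE, adjusted p = 0.0440, limma), where 8.12% of regions were called higher. That call was lost without day 0 control replicate 1, 2 or 3 or day 1 control replicate 1.

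**Figure D2:**
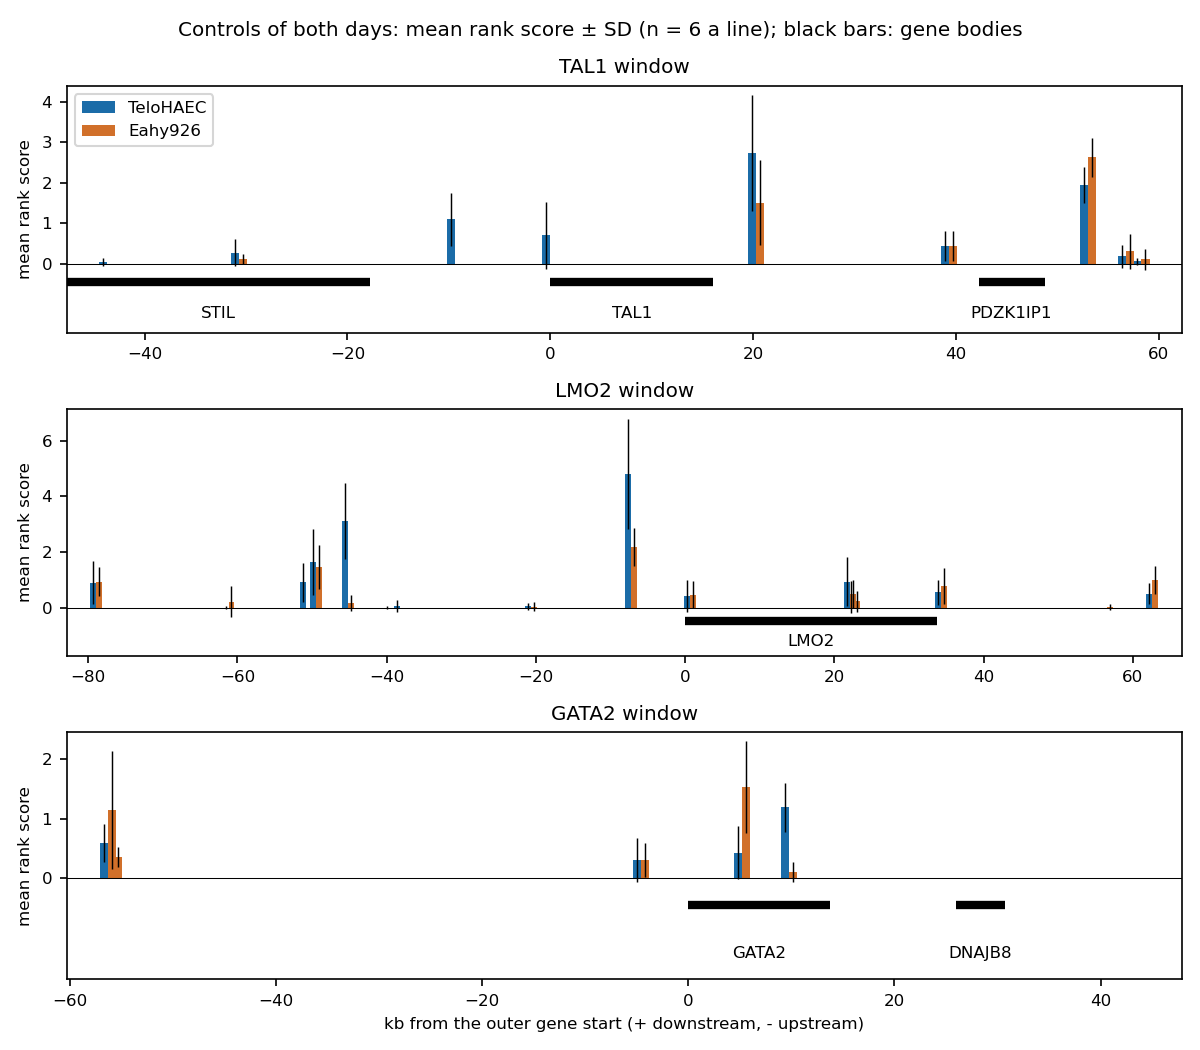
Mean rank score (log2, bars, with SD, n = 6 controls a line, both days) against distance in kb from the outer gene start in the 3 windows; black bars mark gene bodies written from general knowledge. LMO2 -7.2 and LMO2 -45.2 are the highest bars of TeloHAEC at LMO2, GATA2 +9.8 is higher in TeloHAEC, and GATA2 +5.2 is higher in Eahy926.

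Between the lines, the untreated TeloHAEC libraries ranked higher than the untreated Eahy926 libraries at 7 elements and lower at 2, of 23 tested, in a fit of both days' controls (12 libraries) that included the day. Genome-wide 19.6% of 64280 regions were called higher and 18.1% lower, and 37.7% in either direction, so 9 of 23 elements is near the background. Of the 9, TAL1 0.0, TAL1 -9.4, LMO2 -50.8 and GATA2 -55.7 had strong peaks in 1 line only, and the other 5, 4 higher and 1 lower, had them in both. The median difference over the 23 elements was 0.01 and over all tested regions -0.08. By gene, TAL1 had 3 higher of 7 tested, LMO2 3 higher of 11, and GATA2 1 higher and 2 lower of 5. No element was a strong peak in all 6 controls of one line and in none of the other (0 of 29 elements with a strong peak, where 3.57% of regions had this only in TeloHAEC and 2.15% only in Eahy926).

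LMO2 -45.2 (chromosome 11, 33958737 to 33959237) had the largest difference. In TeloHAEC it stood at places 2649, 11495 and 1555 on day 0 and 19315, 4708 and 8101 on day 1. In Eahy926 it stood at 49019 and 41912 in day 0 controls 1 and 3 and at 29706 and 42472 in day 1 controls 1 and 3, with no listed peak in replicate 2 of either day. Every TeloHAEC control ranked above every Eahy926 control. Mean rank scores were 3.12 ± 1.36 and 0.21 ± 0.29 (SD, n = 6 each), a difference of 2.92 (SE 0.47, adjusted p = 0.000157, limma). Within day 0 the difference was 3.69 and within day 1 2.14, both called (adjusted p = 0.00426 and 0.0192, limma). This was the only element of the 9 called in all 10 other settings and in all 12 fits without 1 library.

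LMO2 -7.2 (chromosome 11, 33920802 to 33921302), the strongest element of all, reached place 285 in a TeloHAEC day 1 control. TeloHAEC controls stood at 9602, 1076 and 4811 on day 0 and at 285, 601 and 3740 on day 1. Eahy926 controls stood at 13079, 16755 and 13019 on day 0 and at 10081, 4316 and 13525 on day 1. It is thus a strong peak in both lines, and their ranges overlap, with the weakest TeloHAEC control at 9602 and the strongest Eahy926 control at 4316. Mean rank scores were 4.81 ± 1.95 and 2.19 ± 0.70 (SD, n = 6 each), and the difference was 2.61 (SE 0.64, adjusted p = 0.00432, limma). It was 1.95 within day 0 (adjusted p = 0.0596) and 3.28 within day 1 (adjusted p = 0.0355, limma). LMO2 -50.8, the last of the LMO2 elements called, was a strong peak in 5 of 6 TeloHAEC controls (best place 12478) and in none of Eahy926 (0.93 ± 0.24 SE, adjusted p = 0.00684, limma), so it was tested through TeloHAEC alone. It was 1.36 within day 0 (adjusted p = 0.0122, limma) and too few day 1 controls had a strong peak for a test.

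At GATA2 the lines differed in both directions inside the gene. GATA2 +9.8 (chromosome 3, 128201953 to 128202453) lies in the gene body, where an intron is known to hold an enhancer used in blood stem cells and endothelium; whether the element is that enhancer was not tested. TeloHAEC controls stood at places 15275, 20572 and 23473 on day 0 and 35911, 20665 and 19862 on day 1. Eahy926 had listed peaks only in day 0 controls 1 and 2, at 40746 and 39214, so all TeloHAEC controls ranked above all Eahy926 controls. Means were 1.19 ± 0.41 and 0.11 ± 0.16 (SD, n = 6 each), a difference of 1.08 (SE 0.24, adjusted p = 0.00181, limma). It was 1.14 within day 0 and 1.02 within day 1, both called (adjusted p = 0.0105 and 0.0226, limma). Within day 1 no Eahy926 control had a listed peak, so the element was tested there through TeloHAEC alone and that value is a description.

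GATA2 +5.2 (chromosome 3, 128206557 to 128207057), just inside the inner start, went the other way. Eahy926 controls stood at 15676, 10084 and 12598 on day 0 and at 16852, 16103 and 48241 on day 1. TeloHAEC controls stood at 40546, 24802 and 25749 on day 0, and on day 1 only replicate 2 had a listed peak, at 40555. Eahy926 was higher in every control but day 1 replicate 3. The difference was -1.11 (SE 0.31, adjusted p = 0.0101, limma), -1.23 within day 0 (adjusted p = 0.0217) and -0.98 within day 1 (adjusted p = 0.0919, limma). GATA2 -55.7, with strong peaks in Eahy926 only, differed in the same direction (-0.36 ± 0.11 SE, adjusted p = 0.0180, limma), with listed peaks in 6 of 6 Eahy926 controls at places 33989 to 45357 and in 0 of 6 TeloHAEC controls; it was -0.50 within day 1 (adjusted p = 0.0338, limma) and not tested within day 0.

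At TAL1 3 elements were called in controls, of which TAL1 +20.3 alone had strong peaks in both lines. TAL1 -9.4 had listed peaks in 6 of 6 TeloHAEC controls, at 23441, 14302 and 23804 on day 0 and 48555, 14509 and 28529 on day 1, and no listed peak in any Eahy926 control (1.09 ± 0.26 SE, adjusted p = 0.00383, limma). It was 1.32 within day 0 (adjusted p = 0.00578, limma) and not tested within day 1. TAL1 0.0 differed by 0.70 (SE 0.23, adjusted p = 0.0244, limma; 0.0730 with no filter), all of it from the TeloHAEC day 0 controls (1.40 within day 0, adjusted p = 0.00654, limma). TAL1 +20.3, open in every library, differed by 1.22 (SE 0.45, adjusted p = 0.0386, limma), but by 1.04 within day 0 and 1.40 within day 1, neither of which was called (adjusted p = 0.0506 and 0.220, limma). In the cytokine libraries its difference had the other sign and was not called (-0.17 ± 0.51 SE, adjusted p = 0.803, limma). With those lists ordered by fold enrichment it was called lower in TeloHAEC (-1.28 ± 0.50 SE, adjusted p = 0.0468, limma). The TAL1 +20.3 call was lost in 8 of the 12 fits without 1 control and in 7 of 10 other settings; TAL1 0.0 lost its call without Eahy926 day 0 control replicate 1, 2 or 3 and in 4 of 9 other settings. Of the other calls in controls, GATA2 +9.8 was lost when lists were ordered by fold enrichment, LMO2 -7.2 with a required overlap of 80%, and TAL1 -9.4 and LMO2 -50.8 with lists of 30000 peaks or of peaks with q of 0.0001 or less. TAL1 +53.0, the other element open everywhere, was not called (-0.69 ± 0.36 SE, adjusted p = 0.132, limma).

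**Figure D3:**
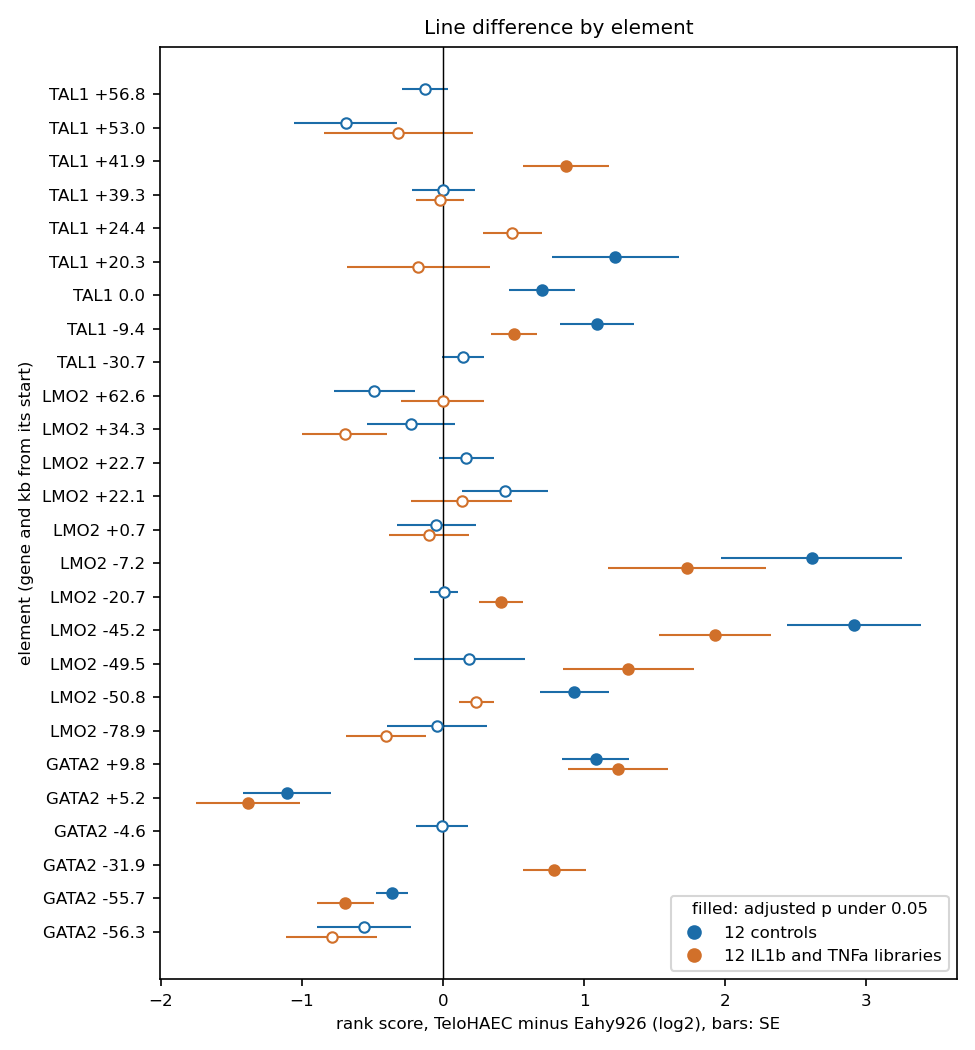
Rank score of TeloHAEC minus Eahy926 (log2, x axis, with SE) for each element tested, in the 12 controls (blue) and in the 12 IL1b and TNFa libraries (orange); filled points passed an adjusted p of 0.05. LMO2 -45.2 and LMO2 -7.2 lie farthest right in both sets, and GATA2 +5.2 farthest left.

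The same line comparison in the 12 IL1b and TNFa libraries, none of which is a control, called 8 elements higher and 2 lower of 21 tested, where 19.7% of regions genome-wide were called higher and 17.9% lower. Of the 10, 7 had strong peaks in 1 line only and were tested through it: TAL1 +41.9, TAL1 -9.4, LMO2 -20.7, GATA2 +9.8 and GATA2 -31.9 in TeloHAEC, and GATA2 +5.2 and GATA2 -55.7 in Eahy926. The other 3, LMO2 -7.2, LMO2 -45.2 and LMO2 -49.5, had strong peaks in both lines and were higher in TeloHAEC. In all, 6 elements were called with the same sign in both fits: TAL1 -9.4, LMO2 -7.2, LMO2 -45.2, GATA2 +9.8, GATA2 +5.2 and GATA2 -55.7. Of these, only LMO2 -7.2 and LMO2 -45.2 had strong peaks in both lines in the cytokine libraries. In either direction 37.7% of regions genome-wide were called in controls and 37.6% in the cytokine libraries. The share called in both fits was not counted, so the 6 have no background. Differences in the cytokine libraries were 1.93 at LMO2 -45.2 (SE 0.40, adjusted p = 0.000828), 1.73 at LMO2 -7.2 (SE 0.56, adjusted p = 0.0195) and 1.24 at GATA2 +9.8 (SE 0.36, adjusted p = 0.00975, limma). They were -1.38 at GATA2 +5.2 (SE 0.37, adjusted p = 0.00590), -0.69 at GATA2 -55.7 (SE 0.20, adjusted p = 0.0120) and 0.50 at TAL1 -9.4 (SE 0.16, adjusted p = 0.0187, limma). None of the 6 cytokine-treated TeloHAEC libraries had a listed peak at GATA2 +5.2, whereas 5 of 6 in Eahy926 had one, at places 7331 to 29669. The LMO2 -7.2 call was lost without Eahy926 TNFa replicate 2 (adjusted p = 0.0598, limma). Also called were LMO2 -49.5 (1.31 ± 0.46 SE, adjusted p = 0.0297), GATA2 -31.9 (0.79 ± 0.22 SE, adjusted p = 0.00896), TAL1 +41.9 (0.87 ± 0.30 SE, adjusted p = 0.0281) and LMO2 -20.7 (0.41 ± 0.16 SE, adjusted p = 0.0411, limma). LMO2 -49.5 lost its call and its direction with lists ordered by fold enrichment (-0.0149, adjusted p = 0.980, limma). It was also lost without Eahy926 IL1b replicate 1, Eahy926 TNFa replicate 1 or TeloHAEC IL1b replicate 1. TAL1 +41.9 was lost with no filter (adjusted p = 0.106, limma) and without Eahy926 IL1b replicate 1, 2 or 3. LMO2 -20.7 was lost with no filter (adjusted p = 0.0654, limma) and in 6 of 12 fits without 1 library.

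Among treatments, TAL1 +41.9 with IL1b in TeloHAEC was the 1 element of 23 tested that passed the threshold, and it was tested only through the 3 libraries in which it is high. It lies at the start of PDZK1IP1 (chromosome 1, 47655814 to 47656314), whose promoter is printed above. The 3 IL1b libraries had strong peaks at places 26852, 7736 and 15739, and the 3 day 1 controls, the 3 TNFa libraries, the 3 VEGF-withheld libraries and all 15 Eahy926 libraries had no listed peak. Of the 3 day 0 controls, replicates 1 and 3 had weaker peaks, at places 102081 and 59997 of their full lists. The 3 IL1b libraries thus lie above all others of the series. The rank score was 1.75 higher than in controls (SE 0.35, adjusted p = 0.0237, limma), 1 of 23 elements tested, where 0.319% of regions genome-wide were called higher. Against TNFa it was higher by 1.75 too (adjusted p = 0.0394, limma; 1 of 23 elements, background 0.104%). That call was lost in 8 of 10 other settings and in all 3 fits without 1 TNFa library, with a highest adjusted p of 0.762 (limma). There the smallest p at LMO2 was at LMO2 -20.7 (0.68 ± 0.21 SE, adjusted p = 0.298) and at GATA2 at GATA2 -56.3 (0.54 ± 0.39 SE, adjusted p = 0.804, limma). The IL1b response was larger in TeloHAEC than in Eahy926 by 1.75 (SE 0.35, adjusted p = 0.0211, limma; 1 of 27 elements, background 0.232%). It was lost in 8 of 9 fits without 1 library. The 3 comparisons share the TeloHAEC IL1b libraries, and every other score in them is 0, so each restates the same 3 places and none supports another. The call against controls was lost with no filter (adjusted p = 0.116, limma) and without day 1 control replicate 1, 2 or 3. Leaving out any IL1b library left too few strong peaks for a test.

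**Figure D4:**
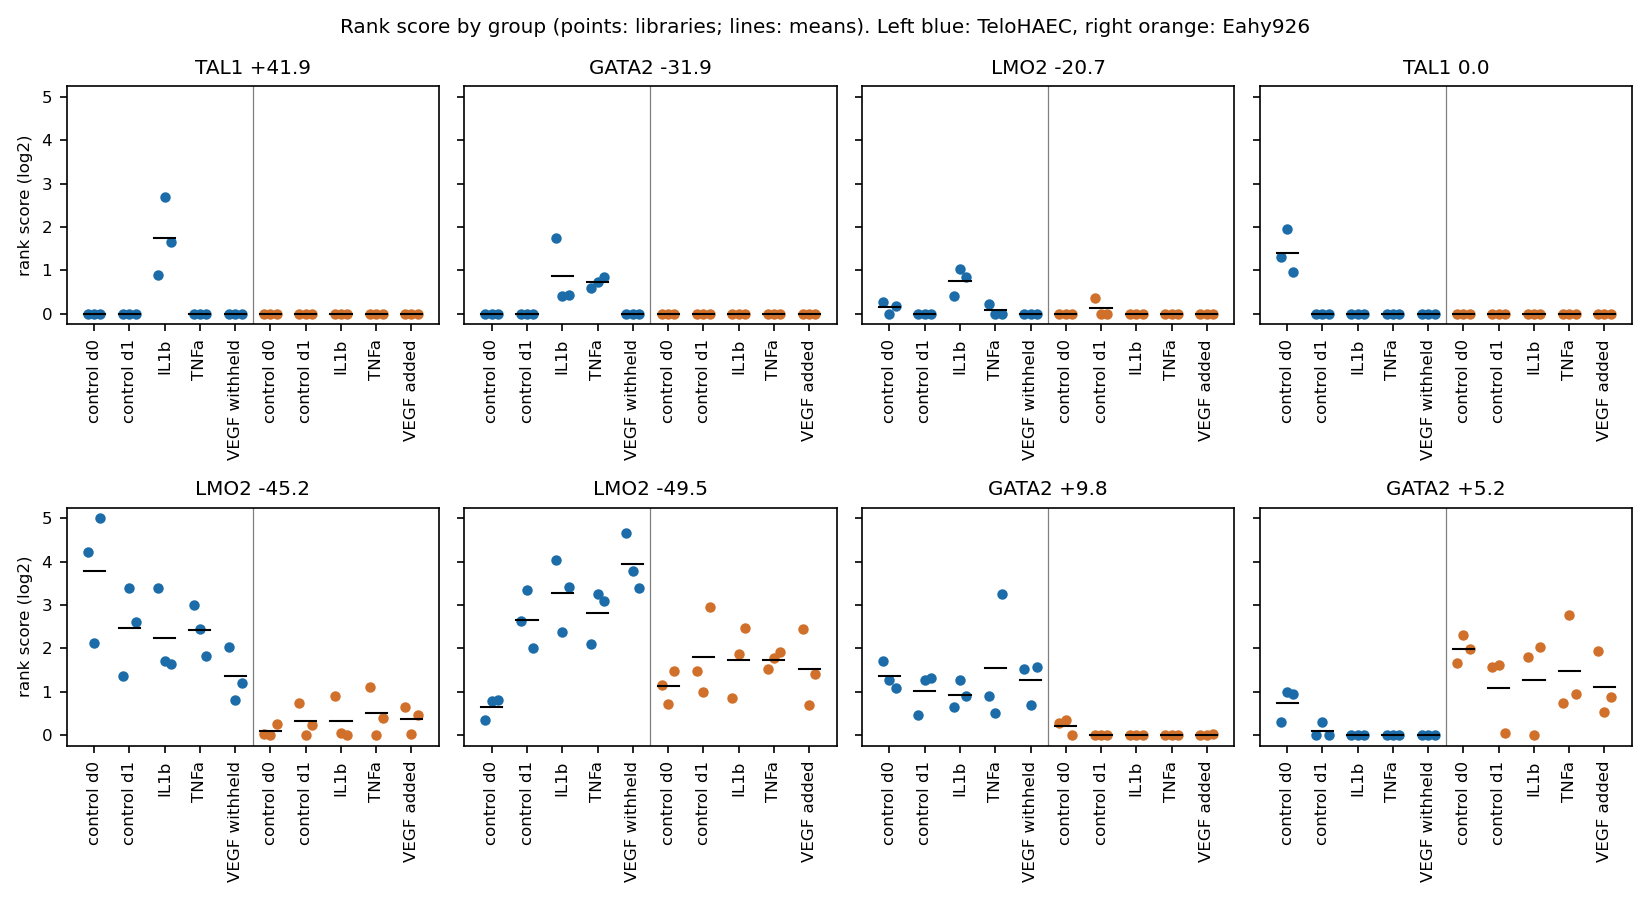
Rank score (log2, y axis) by group for 8 elements; each point is a library, each line a group mean, TeloHAEC is blue and Eahy926 orange. TAL1 +41.9 is above 0 with IL1b in TeloHAEC only, GATA2 -31.9 with IL1b and TNFa in TeloHAEC only, and TAL1 0.0 in the TeloHAEC day 0 controls only.

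GATA2 -31.9 (chromosome 3, 128243673 to 128244173) had the smallest p at GATA2 for both cytokines in TeloHAEC, and passed neither test. The IL1b libraries stood at places 14941, 37644 and 36779 and the TNFa libraries at 33184, 30192 and 27657. Of the controls, day 1 replicate 1 had a weaker peak at place 61467 of its full list, and 2 VEGF-withheld libraries had weaker peaks (74987 and 104439). No Eahy926 library had a peak of any strength. All 6 cytokine libraries of TeloHAEC were therefore above all of its other libraries. The differences were 0.86 with IL1b (SE 0.32, adjusted p = 0.313) and 0.72 with TNFa (SE 0.32, adjusted p = 0.606, limma). The differences between the lines in these responses were 0.86 (adjusted p = 0.371) and 0.72 (adjusted p = 0.632, limma).

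By strong peaks present in 3 of 3 treated libraries and 0 of 3 day 1 controls, IL1b in TeloHAEC gave 3 of 29 elements, TAL1 +41.9, LMO2 -20.7 and GATA2 -31.9, where 1.72% of regions genome-wide did. TNFa in TeloHAEC gave 1 of 25, GATA2 -31.9, where 0.786% did. LMO2 -20.7 stood at 37750, 24459 and 27944 with IL1b, but day 0 controls 1 and 3 had listed peaks at 41640 and 44430 and TNFa replicate 1 at 42567. Its difference with IL1b was 0.75 (SE 0.21, adjusted p = 0.120), and the difference in response between lines was 0.87 (SE 0.20, adjusted p = 0.0548, limma). The opposite pattern, strong peaks only in controls, was found at 0 elements for IL1b and for TNFa (background 1.06% and 0.843%).

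The other treatment comparisons called no element. TNFa in TeloHAEC called 0 of 23, with the smallest adjusted p of 0.606 (limma), where 0.00341% of regions were called. An unadjusted p under 0.05 was found at 2 elements, and at 7.76% of all regions. After GATA2 -31.9 the smallest p per gene was at LMO2 -7.2, at places 5339, 1613 and 10427 with TNFa (-2.38 ± 1.08 SE, adjusted p = 0.619), and at TAL1 +24.4 (0.47 ± 0.32 SE, adjusted p = 0.740, limma). VEGF withheld from TeloHAEC called 0 of 23, where 0% of regions were called. An unadjusted p under 0.05 was found at 1 element, and at 5.03% of all regions. The smallest p per gene was at LMO2 -61.2 (0.50 ± 0.21 SE, adjusted p = 0.974), TAL1 +20.3 (-0.70 ± 0.83 SE, adjusted p = 1.0) and GATA2 +9.8 (0.24 ± 0.62 SE, adjusted p = 1.0, limma). In Eahy926, IL1b (background 0.00353%), TNFa (0.267%) and added VEGF (0%) each called 0 of 16 elements, with 0 unadjusted p under 0.05 in each. Over all regions an unadjusted p under 0.05 was found at 4.20%, 8.77% and 5.08%, in that order. For IL1b the smallest p per gene was at GATA2 -55.7 (0.68 ± 0.40 SE), LMO2 -61.2 (-0.43 ± 0.26 SE) and TAL1 +53.0 (-0.80 ± 0.67 SE), each with an adjusted p of 1.0 (limma). For TNFa it was at LMO2 -7.2 (-1.27 ± 0.65 SE, adjusted p = 0.593), GATA2 -55.7 (-0.29 ± 0.40 SE, adjusted p = 0.904) and TAL1 +53.0 (0.42 ± 0.67 SE, adjusted p = 0.920, limma). For VEGF it was at TAL1 +39.3 (-0.39 ± 0.24 SE, adjusted p = 0.967), LMO2 -7.2 (-0.90 ± 0.65 SE, adjusted p = 0.967) and GATA2 -4.6 (-0.14 ± 0.18 SE, adjusted p = 0.984, limma). IL1b against TNFa in Eahy926 called 0 of 16, where 0.316% of regions were called. An unadjusted p under 0.05 was found at 8.59% of all regions and at 2 elements. Those 2 were GATA2 -55.7 (0.97 ± 0.40 SE, adjusted p = 0.489) and LMO2 -7.2 (1.47 ± 0.65 SE, adjusted p = 0.531, limma), and at TAL1 the smallest p was at TAL1 +53.0 (-1.22 ± 0.67 SE, adjusted p = 0.652, limma). The difference between lines in the TNFa response called 0 of 27, where 0.0518% of regions were called. An unadjusted p under 0.05 was found at 1 element, and at 7.25% of all regions. After GATA2 -31.9, the smallest p per gene for this difference was at LMO2 +22.1 (-1.09 ± 0.72 SE, adjusted p = 0.787) and TAL1 +24.4 (0.37 ± 0.34 SE, adjusted p = 0.858, limma). A p that misses the threshold does not show that the groups are equal.

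Genes that work with these factors were counted by the open regions within 1 kb of their starts. Which of these regions, or of those of the target genes below, had strong peaks in 1 line only was not counted. Their differences and counts are therefore given as a description, not as support. Of the complex partners and blood-endothelial factors, 22 regions were tested between the lines in controls, and 3 were higher (13.6%) and 1 lower (4.55%) in TeloHAEC, beside 19.6% and 18.1% of all regions. Their median was -0.13 beside -0.08 over all regions. The higher ones were HHEX, a homeobox factor of early blood and endothelium (1.34 ± 0.32 SE, adjusted p = 0.00324), FLI1, an ETS factor of both tissues (0.88 ± 0.27 SE, adjusted p = 0.0175), and CBFA2T3, a corepressor found in TAL1 complexes (0.72 ± 0.23 SE, adjusted p = 0.0190, limma). GFI1B, a repressor of erythroid cells and platelets, was lower (-0.999 ± 0.26 SE, adjusted p = 0.00662, limma). LDB1, the partner that binds LMO2, was not called (0.12 ± 0.30 SE, adjusted p = 0.760, limma), nor was the ETS factor ERG (0.00 ± 0.23 SE, adjusted p = 1.0, limma).

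Of endothelial genes known as targets of these factors, 14 regions at starts were tested between the lines in controls. In TeloHAEC 1 was higher (7.14%) and 5 lower (35.7%), beside 19.6% and 18.1% of all regions. Their median was -0.39 beside -0.08 over all regions. CDH5, the endothelial cadherin, was higher (0.90 ± 0.30 SE, adjusted p = 0.0246). The lower ones included NOS3, which makes nitric oxide (-1.55 ± 0.33 SE, adjusted p = 0.00159), EPHB4, a receptor of venous endothelium (-0.97 ± 0.26 SE, adjusted p = 0.00697), and PROCR, the protein C receptor (-2.17 ± 0.77 SE, adjusted p = 0.0330, limma). NRP1 was lower too (-0.95 ± 0.27 SE, adjusted p = 0.0115, limma). At starts in the cytokine libraries, 0 target regions were higher and 5 lower (38.5%) of 13, with a median of -0.85. For the partners and factors 2 were higher (10%) and 3 lower (15%) of 20, with a median of -0.28. All regions there gave 19.7% and 17.9%, with a median of -0.04. Within 50 kb of their starts, in controls, 34 regions were higher (24.3%) and 20 lower (14.3%) of 140 for the targets. For the partners and factors 25 were higher (18.9%) and 15 lower (11.4%) of 132, beside the same 19.6% and 18.1% of all regions. In the cytokine libraries 27 were higher (19.3%) and 26 lower (18.6%) of 140 for the targets. There 17 were higher (13.8%) and 27 lower (22%) of 123 for the partners and factors, beside 19.7% and 17.9% of all regions. With IL1b in TeloHAEC, 0 of 134 and 0 of 110 such regions were called (9 and 7 with an unadjusted p under 0.05, limma), and with TNFa 0 of 134 and 0 of 110 (14 and 8). Over all regions 0.334% were called with IL1b and 0.00341% with TNFa in either direction, so counts of 0 are near the background. An unadjusted p under 0.05 was found at 9.92% of all regions with IL1b and 7.76% with TNFa. The promoter whose rank scores were most like those of GATA2 +5.2, among 41 compared over the 30 libraries, was that of NOS3 (Spearman 0.82; 0.44 within TeloHAEC and 0.51 within Eahy926). Next were EPHB4 (0.65; -0.32 and 0.26) and ZFPM1, a cofactor of GATA factors (0.53; 0.57 and 0.41). For TAL1 0.0 they were TAGLN (0.74; 0.78 within TeloHAEC), CD34 (0.60; 0.62) and EMCN (0.52; 0.45), with no value within Eahy926, where all its scores are 0. For LMO2 +22.1 they were HHEX (0.36; 0.46 within TeloHAEC and -0.02 within Eahy926), TEK (0.29; 0.39 and 0.28) and ANGPT2 (0.29; 0.30 and no value). These correlations share the libraries, their days and their depth, and are given without a test.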

How the data were processed

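ATAC-seq peak lists of 30 libraries (10 groups of 3) were used as deposited. Alignment was to hg19 by Bowtie2, per the submitters' processing notes. Per the file headers, peaks were called per library with MACS2 2.1.1.20160309 on single-end tags without a control, at a p threshold of 0.001, keeping at most 1 tag a position and splitting summits. Each row of a deposited list is 1 summit, with a pileup (a coverage signal in tags), p and q, both as -log10, and a fold enrichment (a ratio over the local background), all computed by the authors. They hold no counts per region, so only places within a list were compared and not heights, which also limits precision: depth enters through list length and order.

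Summits of 1 interval were merged to the strongest, the 22 autosomes kept, lists ordered by p (ties by fold enrichment) and shortened to 49774. The 45000 strongest peaks defined 107672 regions of 501 bp; a peak covering at least 50% of the shorter counted as present. Rank scores were compared with limma 3.58.1 (R 4.3.3, trend, two-sided) wherever 3 or more of the libraries fitted had a strong peak; p-values were adjusted by Benjamini-Hochberg over every region tested, threshold 0.05. Line fits used the 12 controls with day as a term, or the 12 cytokine libraries with treatment as a term. Treatment fits used the 12 day 1 libraries of a line, differences of responses the 24 day 1 libraries, and day fits the 6 controls of a line. The method was tried on simulated normal data, which lack the many scores of 0 in the real lists, so the trial does not cover elements without listed peaks. Python 3.11.15, numpy 2.4.6 and pandas 2.3.3 handled lists; matplotlib 3.10.9 drew figures.

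Named elements were those within 1 kb of a start of the 3 genes, every called element, and the element with the smallest p per gene in each treatment comparison. Members and gene lists were chosen with earlier results of these data known. Replicates are biological replicates per the labels. Gene starts on hg19 came from general knowledge for 62 genes, all 62 on the chromosome given by RefSeq and with 43 of 43 neighbours in the same order; on average 45.2% of them had a strong peak within 1 kb, against 8.71% of positions 20 kb away.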

Additional observations from a re-analysis of the deposited data

Results flagged for a closer look

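The IL1b response at TAL1 +41.9, the element at the PDZK1IP1 start, was 1.75 larger on the log2 rank score in TeloHAEC than in Eahy926 (adjusted p = 0.0211, limma interaction term). The element was tested only through the 3 TeloHAEC IL1b libraries, and all 21 other scores in the fit are 0, so the value describes those 3 libraries. Strong peaks were present in 3 of 3 TeloHAEC IL1b libraries and listed peaks in 0 of 3 Eahy926 IL1b libraries and 0 of 3 day 1 controls of either line. Over 9 other settings 7 kept the call, and over 9 fits without 1 library 1 did, with a highest adjusted p of 0.332.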

How the results depend on the processing

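Alternatives were an order by fold enrichment, an overlap of 80% or of 1 bp, the 30000 strongest peaks, peaks with q of 0.0001 or less, no filter, normal scores, a replicate block, only the 2 groups compared, each preparation day alone, and each library left out. A fit without the 3 libraries with the fewest kept tags was chosen after seeing the data. The counts of called elements that follow are given without the share of all regions called under each alternative. They therefore cannot tell a change at these elements from a change in calls genome-wide. Elements called between the lines in controls went from 9 to 4 with the 30000 strongest peaks, 4 with the stricter q and 4 in day 1 controls alone, and to 7 to 9 without 1 library. Day 0 controls alone also called LMO2 +62.6, lower in TeloHAEC (-0.87 ± 0.29 SE, adjusted p = 0.0402, limma). In the cytokine libraries the elements called went from 10 to 3 with either shorter list and to 8 to 11 without 1 library. They went to 14 with normal scores (adding GATA2 -56.3, LMO2 +34.3, LMO2 -50.8 and TAL1 +24.4). With fold enrichment TAL1 +20.3 was called there, lower in TeloHAEC (-1.28 ± 0.50 SE, adjusted p = 0.0468, limma). The single IL1b call in TeloHAEC became 0 with the 30000 strongest peaks, the stricter q, no filter or only the 2 groups, and 0 to 1 without 1 library; the 1 is LMO2 -38.2 (adjusted p = 0.0488, limma) without IL1b replicate 3. The single call of IL1b against TNFa in TeloHAEC became 0 with fold enrichment, 80% overlap, either shorter list, no filter, normal scores, only the 2 groups and without the shallowest libraries, and was 0 to 0 without 1 library. The 2 day calls in TeloHAEC became 0 with fold enrichment or no filter and 1 with 80% overlap or either shorter list (0 to 2 without 1 library), and normal scores called LMO2 +22.7 as well (-1.23, adjusted p = 0.0117, limma). The 1 in Eahy926 became 0 with fold enrichment, 80% overlap or no filter (0 to 1 without 1 library), and with normal scores TAL1 +56.8 was called in its place (-1.10, adjusted p = 0.0111, limma). The single call of the IL1b response between lines became 2 with fold enrichment or no filter, the second being LMO2 -20.7 (adjusted p = 0.0138 and 0.0239, limma), and 0 with either shorter list (0 to 1 without 1 library). The comparisons with 0 calls had 0 in every alternative run. The mean number of elements with a strong peak in controls was 17.2 in TeloHAEC and 14.7 in Eahy926, with 10.7 and 8.67 in lists of 30000 and 28.3 and 21.8 in full lists. LMO2 -49.5 in the cytokine libraries turned to -0.0149 with fold enrichment. The cause of these changes was not tested. Some elements had too few strong peaks to be tested in some alternatives, and others were tested there and lost their call.

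The replicate numbers did not pair the libraries: after group means were removed, same-numbered day 1 libraries had median correlations of -0.00583 (TeloHAEC) and -0.00283 (Eahy926), and 0 of 18 pairs per line exceeded 0.1. With the replicate block, 8 elements were called between the lines in controls and 9 in the cytokine libraries, and the other counts did not change. The calls not made with it were GATA2 -55.7 in controls (-0.36, adjusted p = 0.0522) and LMO2 -20.7 in the cytokine libraries (0.41, adjusted p = 0.0556, limma).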

Other observations

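Outside the comparisons, the full lists held weaker peaks at many elements: all 36 had a peak of some strength in at least 4 libraries, and LMO2 -40.4 had the fewest, 4. TAL1 +24.4 had no listed peak in any control of either line, but had one in 3 of 3 IL1b, 2 of 3 TNFa and 1 of 3 VEGF-withheld libraries of TeloHAEC, and weaker peaks in 5 of 6 TeloHAEC controls. In Eahy926 it had a listed peak in TNFa replicate 3. LMO2 -38.2 had no peak of any strength in 15 of 15 Eahy926 libraries and one in 15 of 15 TeloHAEC libraries, of which 6 were listed. Full lists were longer in TeloHAEC (median 106767 peaks) than in Eahy926 (median 75478). The share of all regions with such a split was not counted.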
